A study of Gallus gallus with 6 samples.

Results

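The insulin-like growth factor (IGF) system of chicken muscle cells in culture is described here through its ligands, receptors and binding proteins. Its members were chosen by name: of 10 symbols, 8 were found as such in the deposited tables of 26591 gene entries, IGF1 was found under its RefSeq synonym IGF-I, and IGFBP7 was matched to no entry and was not analysed here. Of the 9 members found, 8 passed the filter on low counts, as did 15959 entries in all. RNA was sequenced from 6 libraries of primary skeletal muscle cells of chicken (Gallus gallus) embryos at passage 1, 3 labelled as proliferating myoblasts and 3 labelled as differentiated myotubes. No strain, sex or embryo age is among the labels used here, and the cells carried no transgene or deletion that the labels name. Myoblasts were grown with 15% fetal bovine serum and myotubes were made in 2% horse serum, both with 2% penicillin and streptomycin, so that the state of the cells and the kind and amount of serum changed together and cannot be told apart. The labels do not say that replicates were separate cultures or embryos, and p-values therefore measure only the spread between these libraries, which may be technical.

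IGF1 and IGF2 are small secreted proteins related to insulin. Both act through the receptor tyrosine kinase IGF1R, which signals through insulin receptor substrate proteins to the PI3K and AKT pathway and to the RAS and MAPK pathway. In muscle the ligands promote both the division of myoblasts and their differentiation, and IGF2 made by the cells themselves is known in mouse muscle cultures as a driver of differentiation. IGF binding proteins (IGFBPs) are secreted proteins that hold the ligands outside the cell, and depending on the protein and its cleavage they limit or prolong ligand action. IGF2R, which in mammals carries IGF2 to lysosomes for breakdown, does not bind IGF2 with high affinity in the chicken.

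Libraries held from 21893152 to 27546527 counts. The labels were checked against marker genes. The muscle markers MYOD1, MYOG and DES were present in all libraries, but 5 of 8 muscle markers tested were lower and none was higher in the libraries labelled as myotubes. Lower were MYF5 (log2 change -2.93), DES (-2.47), Pax-7 (-1.91), MYH15 (-1.31) and MYOD1 (-0.75), while MYOG, TMEM8C and TNNT3 had no call. The summed level of the list was 2160 to 3850 FPKM in myoblasts and 1130 to 1190 FPKM in myotubes. The list mixes genes of muscle precursors and myoblasts (MYF5, Pax-7 and MYOD1) with genes of differentiating and later muscle. A fall of the former does not count against the label. Of the latter, DES and MYH15 were lower and MYOG, TMEM8C and TNNT3 had no call. None of them rose, so they did not bear out the label of differentiated myotubes. They were already high in the libraries labelled as proliferating myoblasts. There MYOG stood at 367 ± 138 FPKM and TNNT3 at 604 ± 314 FPKM (SD, n = 3). The lack of a rise therefore bears on both labels. The group names used here follow the labels only. FPKM, as the authors computed it, is a read count scaled to gene length and library size. For 66.6% of the values with a count above 0 it equalled, within 1%, the count over the listed length and the library total, and among the genes named here that quotient was as low as 0.370 of the deposited value for IRS2, 0.654 for IGF2BP3 and 0.692 for FOXO1. All 8 cell division genes tested were lower in myotubes (431 to 796 FPKM summed in myoblasts, 149 to 183 in myotubes), and all 10 fibroblast markers were higher (1050 to 1840 against 4530 to 5240 FPKM summed), none of them at 0 in any group. Of 5 smooth muscle markers 4 were higher and 1 lower, with sums of 259 to 351 and 1120 to 1510 FPKM, whereas the 5 endothelial markers found summed to at most 1.53 FPKM in any library. Of 7 leukocyte markers 2 were higher and 1 lower (63.2 to 129 and 107 to 113 FPKM summed), and of 5 adipocyte markers 2, PPARG and PLIN1, were higher and 1, ADIPOQ, was lower (130 to 242 and 182 to 242 FPKM). Of 5 erythroid markers 4 were lower, with sums of 25.7 to 80.5 FPKM in myoblasts and of at most 4.74 FPKM in myotubes. Myoblast replicate 3 stood apart from the other myoblast libraries. It had the group's lowest summed levels of the cell division genes and of the fibroblast markers, and the highest of the muscle, leukocyte, erythroid and adipocyte markers. Not every gene followed its sum: MYF5, Pax-7, ADIPOQ and LPL were lowest of the group in that library, and DPT was highest. In such bulk RNA, fewer cells of a type and less RNA per cell cannot be told apart, and the part of these marker shifts in the changes given next was not tested.

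Within the IGF system, the ligand gene IGF2 was higher in myotubes, and the receptor gene IGF1R and the binding protein genes IGFBP2 and IGFBP4 were lower. INSR, IGF2R, IGFBP3 and IGFBP5 had no call, and IGF1 was too low to be tested. So 1 of 8 tested members rose and 3 fell at an adjusted p under 0.05 (edgeR's quasi-likelihood test with Benjamini-Hochberg adjustment), where 30.0% of all tested genes rose and 29.1% fell. The share of members called, 4 of 8, was close to the 59.1% of all tested genes called in either direction, given so few members. The changes of IGFBP2 and IGF2 were larger in size than those of 89.2% and 81.3% of tested genes, and those of IGF1R and IGFBP4 than 60.6% and 59.7%.

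**Figure D1:**
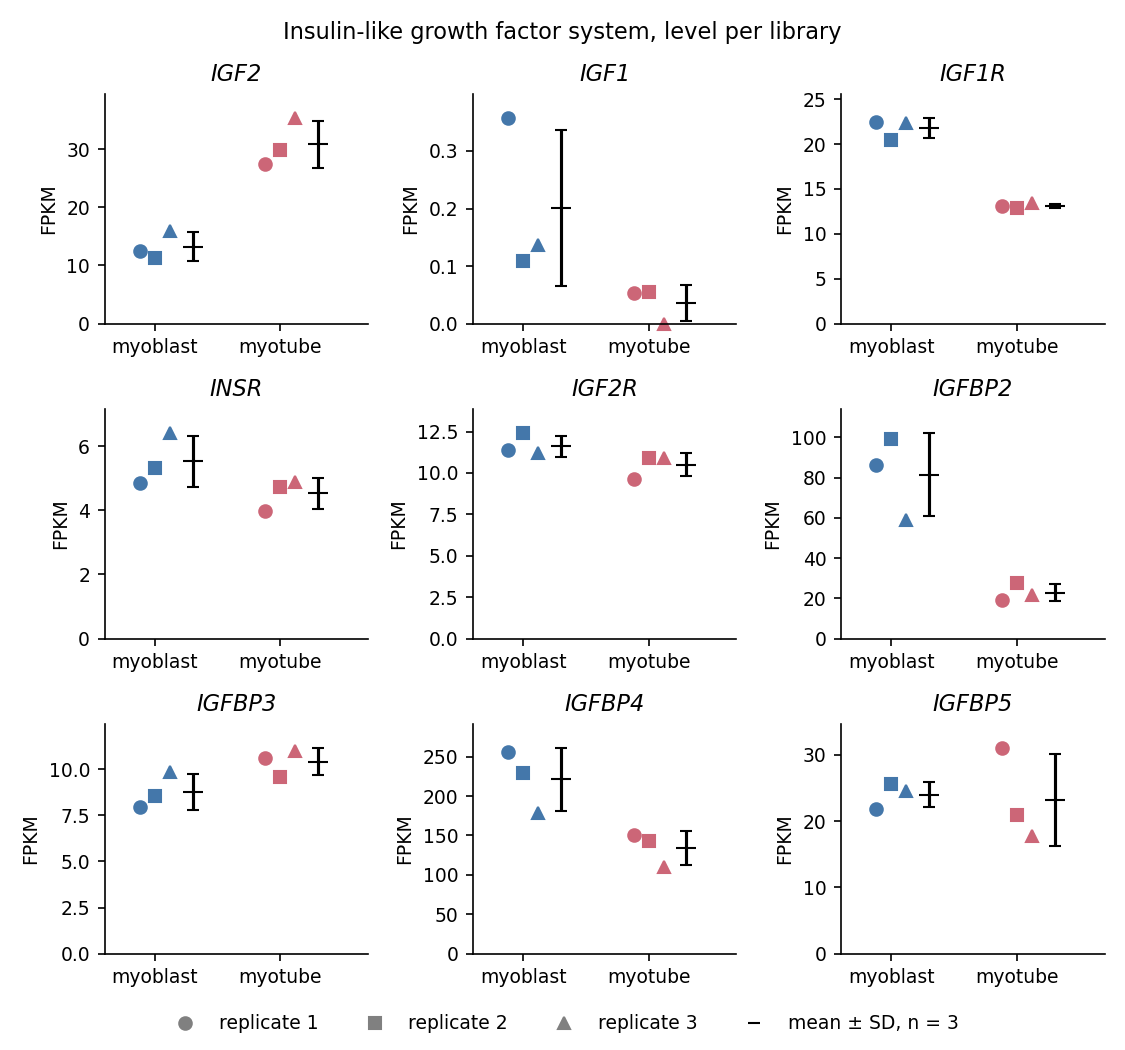
Level of each of the 9 members in FPKM (vertical axes, linear and starting at 0) in the 3 myoblast and 3 myotube libraries. Points are libraries with a symbol for each replicate number, and the bar beside each group is the mean ± SD (n = 3). IGF2 is higher in every myotube library than in any myoblast library, and IGF1R, IGFBP2 and IGFBP4 are lower. INSR, IGFBP3 and IGFBP5 overlap between the groups.

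IGF2, on chromosome 5 (13774857 to 13783200 in the coordinates of the deposited tables, of unstated genome build), was the ligand measured at a level that could be tested. It stood at 12.5, 11.2 and 16.0 FPKM in myoblast replicates 1 to 3 and at 27.4, 29.9 and 35.3 FPKM in myotube replicates 1 to 3. Every myotube library lay above every myoblast library, and the highest myoblast library was replicate 3. The means were 13.2 ± 2.49 FPKM in myoblasts and 30.8 ± 4.06 FPKM in myotubes (SD, n = 3 each). The log2 change, myotube minus myoblast, was 1.27 ± 0.16 (SE), a 2.41-fold rise with an adjusted p of 0.000277 (edgeR). Without myoblast replicate 3 the log2 change of IGF2 was 1.45.

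IGF1 (chromosome 1, 55335204 to 55383631) was nearly undetected. It had 7, 2 and 3 reads in myoblast replicates 1 to 3 and 1, 1 and 0 reads in myotube replicates 1 to 3, which puts it at most at 0.357 FPKM. The 12 reads of the myoblast libraries against 2 in the myotube libraries gave a ratio, per total count, of 5.44 with a 95% exact binomial interval of 1.21 to 50.1, an interval that covers counting error alone. Of the 12 reads, 7 came from myoblast replicate 1. In both groups IGF2 thus made up nearly all of the measured IGF ligand RNA in FPKM.

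IGF1R (chromosome 10, 16697772 to 16838212), the signalling receptor for both ligands, was the most even of the changed members. Its level was 22.5, 20.5 and 22.3 FPKM in myoblast replicates 1 to 3 and 13.1, 12.9 and 13.4 FPKM in myotube replicates 1 to 3. The groups were well apart and varied little within themselves, with means of 21.8 ± 1.09 and 13.1 ± 0.236 FPKM (SD, n = 3 each). The log2 change was -0.67 ± 0.08 (SE), a 1.59-fold fall (edgeR adjusted p = 0.000166).

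INSR, which encodes the insulin receptor and lies on chromosome 28 (4133024 to 4167171), was measured at 4.85, 5.32 and 6.40 FPKM in myoblasts and at 3.99, 4.73 and 4.88 FPKM in myotubes. The highest myotube value lay just above the lowest myoblast value, so the groups overlapped. The log2 change was -0.23 with a 95% interval of -0.55 to 0.09 and no call (edgeR adjusted p = 0.182), and it was -0.09 without myoblast replicate 3. The 2 related receptors thus stood at a ratio of IGF1R to INSR FPKM of 3.99 ± 0.584 in myoblasts and 2.92 ± 0.318 in myotubes (SD, n = 3 each). The lowest myoblast ratio, 3.49 in replicate 3, lay above the highest myotube ratio, 3.29 in replicate 1.

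IGF2R (chromosome 3, 45625353 to 45679661) encodes the cation-independent mannose 6-phosphate receptor, which sorts enzymes to lysosomes. It stood at 11.4, 12.4 and 11.2 FPKM in myoblasts and at 9.65, 10.9 and 10.9 FPKM in myotubes. The ranges did not overlap, but the distance between them was small, and ranges that do not overlap were found for 66.7% of all tested genes. The log2 change was -0.10 with a 95% interval of -0.27 to 0.07 and no call (edgeR adjusted p = 0.287). M6PR, the gene of the other mannose 6-phosphate receptor, went from 97.0 ± 7.68 to 106 ± 9.40 FPKM (SD, n = 3 each) and was not called (log2 change 0.18 ± 0.09; adjusted p = 0.101 by edgeR).

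**Figure D2:**
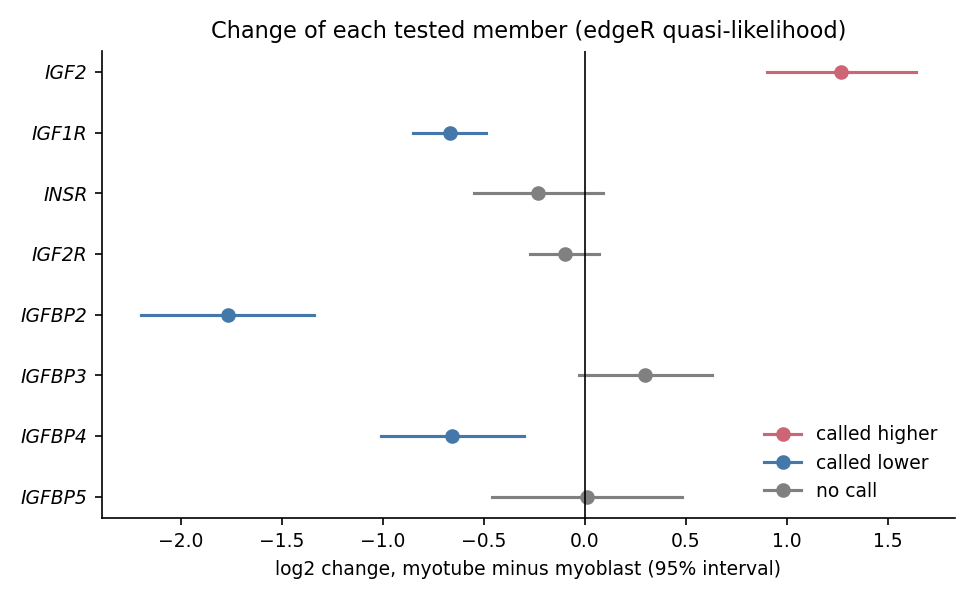
Log2 change, myotube minus myoblast (horizontal axis), of the 8 tested members, with its 95% interval as a line, from edgeR's quasi-likelihood fit over 3 myoblast and 3 myotube libraries. IGF2 lies at 1.27, IGF1R at -0.67, IGFBP4 at -0.66 and IGFBP2 at -1.77, and the intervals of the other members include 0.

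Among the binding proteins, IGFBP4 had the highest level of all members in both groups. Its FPKM exceeded that of about 97.4% of tested genes in myoblasts and of 95.3% in myotubes. IGFBP4, on chromosome 27 (4865485 to 4870779), encodes a binding protein known mainly as an inhibitor of IGF action. It was measured at 256, 229 and 178 FPKM in myoblast replicates 1 to 3 and at 150, 143 and 110 FPKM in myotube replicates 1 to 3. The groups did not overlap, though myoblast replicate 3 was nearer to the highest myotube library than to myoblast replicate 2. The means were 221 ± 39.7 and 134 ± 21.2 FPKM (SD, n = 3 each), and the log2 change was -0.66 ± 0.16 (SE; edgeR adjusted p = 0.00662), or -0.78 without myoblast replicate 3.

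IGFBP2 had the largest change of the members. This gene (chromosome 7, 23382780 to 23435025) encodes a binding protein with a preference for IGF2. It stood at 86.2, 99.4 and 59.0 FPKM in myoblast replicates 1 to 3 and at 19.4, 27.6 and 21.9 FPKM in myotube replicates 1 to 3. Even the lowest myoblast library, replicate 3, was above all 3 myotube libraries. The means were 81.5 ± 20.6 and 22.9 ± 4.19 FPKM (SD, n = 3 each), a 3.41-fold fall with a log2 change of -1.77 ± 0.19 (SE; edgeR adjusted p = 0.000111). Without myoblast replicate 3 the log2 change was -1.94. From the second highest level of the 9 members in myoblasts, IGFBP2 moved among the middle ones in myotubes.

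IGFBP5, whose product binds the extracellular matrix and is known as a binding protein of differentiating muscle cells in mouse, did not follow. The gene lies next to IGFBP2 on chromosome 7 (23359550 to 23376226), on the opposite strand and 6554 bases away. Its level was 21.8, 25.6 and 24.5 FPKM in myoblasts and 31.0, 20.9 and 17.7 FPKM in myotubes. The myotube libraries spread around the myoblast values, replicate 1 above all of them and the other two below. The log2 change was 0.01 with a 95% interval of -0.46 to 0.48 (edgeR adjusted p = 0.964), and it was -0.27 without myotube replicate 1.

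IGFBP3 (chromosome 2, 55103568 to 55119141), the main carrier of IGFs in mammalian serum, had the lowest level of the 4 binding protein members. It was measured at 7.94, 8.52 and 9.83 FPKM in myoblasts and at 10.6, 9.58 and 11.0 FPKM in myotubes. The highest myoblast library, replicate 3, lay between the myotube libraries. The log2 change was 0.30 with a 95% interval of -0.03 to 0.63 and no call (edgeR adjusted p = 0.106). Without myoblast replicate 3 it was 0.41 and was called (edgeR adjusted p = 0.0248). IGFBP1, its neighbour 9682 bases away on the opposite strand, had 4 reads over the myoblast and 2 over the myotube libraries.

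Summed over IGFBP2, IGFBP3, IGFBP4 and IGFBP5, binding protein RNA was 372, 363 and 272 FPKM in myoblast replicates 1 to 3 and 211, 201 and 161 FPKM in myotube replicates 1 to 3. IGFBP4 held 65.9 ± 2.85% of this sum in myoblasts and 70.3 ± 1.46% in myotubes (SD, n = 3 each). These ranges overlapped, with 68.9% in myoblast replicate 1 and 68.6% in myotube replicate 3. Shares of 1 sum are tied to each other, and IGFBP4 itself fell in FPKM. The share of IGFBP2 was 24.1 ± 2.97% in myoblasts and 12.2 ± 2.58% in myotubes, and those of IGFBP5 and IGFBP3 were 7.31 ± 1.60% and 2.70 ± 0.804% in myoblasts and 12.0 ± 2.32% and 5.54 ± 1.14% in myotubes. Relative to IGF2, the sum of binding protein FPKM was 29.7, 32.5 and 17.0 in myoblasts and 7.72, 6.72 and 4.56 in myotubes. Every myotube library thus had less RNA of these summed binding proteins per IGF2 RNA than any myoblast library, with myoblast replicate 3 the lowest of its group. IGFBP6, IGFBP7 and IGFBPL1 were matched to no entry and are not in the sum. The ratio of IGF2 to IGF1R FPKM was 0.606 ± 0.0955 in myoblasts and 2.34 ± 0.276 in myotubes (SD, n = 3 each). These sums, shares and ratios describe chosen members, rest on the gene lengths listed and were given no test.

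**Figure D3:**
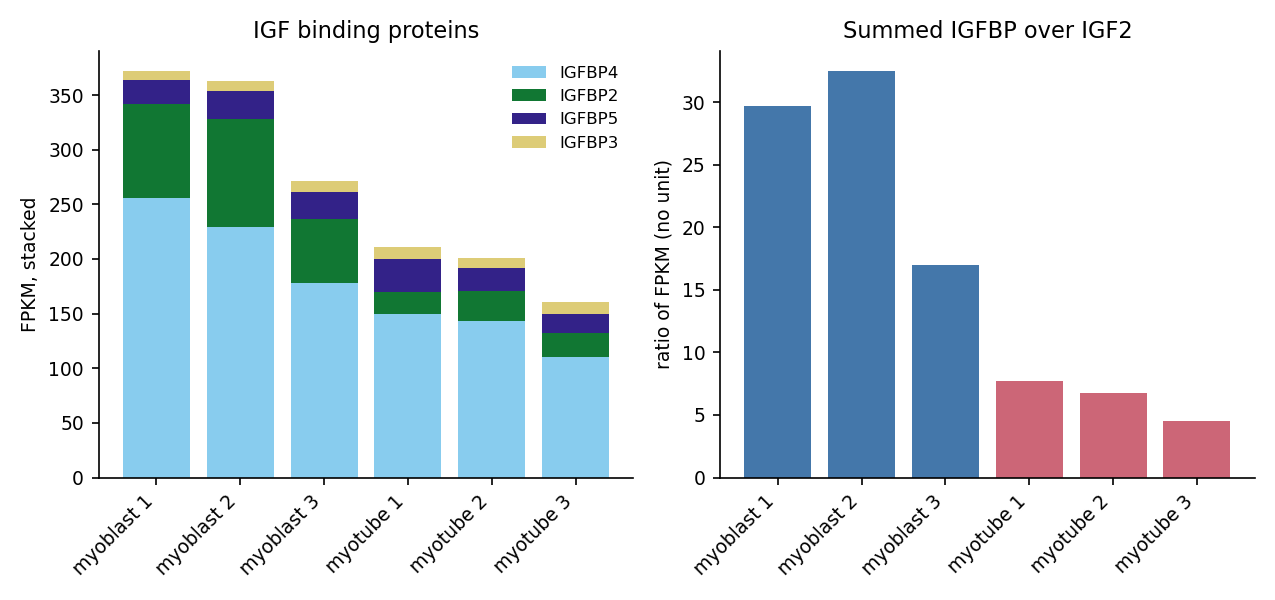
Left, FPKM of IGFBP4, IGFBP2, IGFBP5 and IGFBP3 stacked for each of the 6 libraries. Right, the same sum divided by the FPKM of IGF2 in each library (a ratio with no unit), which lies between 17.0 and 32.5 in myoblasts and between 4.56 and 7.72 in myotubes.

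In FPKM, which is scaled to length, the order of levels in myoblasts was IGFBP4, IGFBP2, IGFBP5, IGF1R, IGF2, IGF2R, IGFBP3, INSR and IGF1. IGFBP5 and IGF1R overlapped in their ranges there, as did IGF2 and IGF2R, and the other neighbours did not. In myotubes the order was IGFBP4, IGF2, IGFBP5, IGFBP2, IGF1R, IGF2R, IGFBP3, INSR and IGF1. There IGF2 overlapped with IGFBP5, IGFBP5 with IGFBP2, and IGF2R with IGFBP3. IGF2 moved from the fifth to the second place. The lengths listed for INSR, IGFBP3 and IGFBP5, 4062, 912 and 810 bases, are multiples of 3, and no source used here says whether they leave out untranslated regions, so the order between genes holds only for these lengths. The count divided by the listed length and the library total equalled FPKM within 1% for every member but IGF2R, for which that quotient was 0.924 of the deposited value.

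The genes whose pattern over the 6 libraries was most like a member's were sought among 5970 genes with a symbol and a mean of at least 10 FPKM. Likeness was measured by Pearson's r of log2 CPM (counts scaled to the library total as adjusted by TMM), as a description with no test. For IGF2 they were PLK2 and p95-APP2, both at r = 0.996. AGO1 and PDP2 came first for IGF1R (both 0.998), ACTR6 and IBA57 for IGFBP2 (both 0.999), and INTS14 and NOB1 for IGFBP4 (0.992 and 0.989). Because the 2 groups set most of such a pattern, many genes followed it. An r over 0.9 was found with IGF2 for 944 genes, with IGF1R for 1493, with IGFBP2 for 1166 and with IGFBP4 for 325. Pearson's r takes no account of the size of a change, and the genes named for the called members all changed less than their member. ACTR6 and IBA57, for example, had log2 changes of -0.38 and -0.45 beside -1.77 for IGFBP2. For the members with no call the nearest were PEPD and SLC35F5 for IGF2R (0.990 and 0.984), GNG11 and KCTD3 for INSR (0.991 and 0.987), ISCA1 and NPL for IGFBP3 (0.993 and 0.979), and ZDHHC6 and POLR2L for IGFBP5 (0.962 and 0.953). Over 0.9 there were 48 genes for IGF2R, 64 for INSR, 104 for IGFBP3 and 6 for IGFBP5.

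Around the members, 163 symbols of genes that process, bind, transmit or restrain IGF signals were listed in 11 groups by role, of which 118 entries were found and 111 were tested. Of these 33 rose and 39 fell, 64.9% in either direction beside 59.1% of all tested genes, and the median log2 change was -0.11 beside 0.0003 over all genes. The list as a whole therefore moved about as often as other genes and in both directions. The groups given next are small, and their counts stand beside 30.0% of all tested genes that rose and 29.1% that fell. A change was called by edgeR's quasi-likelihood test with Benjamini-Hochberg adjustment over all genes throughout.

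Of 9 genes for ligand processing and binding protein cleavage, 4 rose and 1 fell. PCSK6, a proprotein convertase, rose from 2.81 ± 0.777 to 27.9 ± 3.64 FPKM (SD, n = 3 each; log2 change 3.38 ± 0.20). PLAU, the urokinase gene, rose by a log2 change of 2.21 ± 0.21, and the metalloproteases ADAM12, which in human cleaves IGFBP3 and IGFBP5, and ADAMTS1 rose by 1.03 ± 0.08 and 0.77 ± 0.15. IDE, the insulin-degrading enzyme, fell by 0.42 on the log2 scale. HTRA1, a secreted serine protease that can cleave IGFBP5, was the highest of the group at 296 ± 53.9 and 257 ± 17.3 FPKM with no call. STC1 and STC2 encode stanniocalcins, which in mammals inhibit the pappalysin proteases that cut IGFBP4, and neither was called: STC2 stood at 144 ± 24.2 and 142 ± 9.70 FPKM and STC1 at 2.72 ± 0.315 and 2.41 ± 0.517 FPKM. PAPPA and PAPPA2 were matched to no entry and were not analysed here.

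Of 9 genes for related binding proteins, 2 rose and 5 fell. Those that rose were WISP1 (55.3 ± 11.7 to 148 ± 11.3 FPKM, log2 change 1.49 ± 0.15) and CTGF (189 ± 25.3 to 322 ± 12.3 FPKM, 0.82 ± 0.11), both of the CCN family of matrix-associated proteins, which share an IGFBP-like domain. WISP2 (-2.26 ± 0.27) and CYR61 (-0.55 ± 0.10) of the same family fell, as did KAZALD1, from 65.1 ± 19.1 to 28.2 ± 3.62 FPKM (-1.16 ± 0.20). IGFALS, whose product holds IGF and IGFBP3 in a serum complex, was low, at 0.748 ± 0.160 and 0.103 ± 0.0339 FPKM, and fell (-2.76 ± 0.36).

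All 3 genes for IGF2 mRNA binding proteins fell. These RNA-binding proteins of embryonic and dividing cells bind IGF2 transcripts among many others. IGF2BP1 went from 51.4 ± 6.67 to 27.3 ± 1.94 FPKM (log2 change -0.85 ± 0.11), IGF2BP2 from 33.4 ± 3.63 to 17.5 ± 0.158 FPKM (-0.88 ± 0.10) and IGF2BP3 from 49.8 ± 2.22 to 30.7 ± 1.51 FPKM (-0.64 ± 0.08; SD, n = 3 each), while IGF2 itself rose. Adjusted p was 0.000261, 0.000184 and 0.000208 (edgeR). Whether their fall and the rise of IGF2 are linked was not tested.

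Of 7 other receptors and co-receptors, 2 rose and 1 fell: LRP1, an endocytic receptor, went from 43.6 ± 4.93 to 120 ± 4.20 FPKM (log2 change 1.51 ± 0.09), SORL1 rose by 2.14 ± 0.09, and INSRR, an insulin receptor relative, fell (-1.24 ± 0.29) at under 1 FPKM. In the growth hormone axis, CISH, a cytokine-induced inhibitor of JAK and STAT signalling, fell from 201 ± 16.3 to 68.0 ± 5.66 FPKM (-1.51 ± 0.10). JAK2 fell by 0.56 on the log2 scale, SOCS2 rose (1.07 ± 0.28), and 2 of the 5 genes of this group had no call.

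Among 11 adaptor genes, 4 rose and 4 fell. IRS1, the substrate through which IGF1R reaches PI3K, went from 10.7 ± 1.30 to 7.70 ± 0.589 FPKM (log2 change -0.41 ± 0.13; edgeR adjusted p = 0.0234). That call was lost without myoblast replicate 1, myotube replicate 2 or myotube replicate 3, where edgeR's adjusted p was 0.0763, 0.0819 and 0.0869. IRS2 had no call at 4.24 ± 0.853 and 4.80 ± 0.723 FPKM. DOK5 rose from 0.578 ± 0.189 to 7.26 ± 0.967 FPKM (3.71 ± 0.23) and SH2B3, an adaptor that restrains cytokine signalling, by 1.27 ± 0.12. SH2B2 was called higher (0.59 ± 0.22), but not without myoblast replicate 1 or 2 or any 1 myotube library (edgeR adjusted p 0.0693 to 0.123), with the replicate block (0.0533), or with limma on unfiltered FPKM (0.0762) or TPM (0.0798). CRK was called lower (-0.58 ± 0.21), but not without myoblast replicate 1 or 2 or myotube replicate 2 or 3 (edgeR adjusted p 0.108 to 0.135) or with limma on unfiltered FPKM (0.0723).

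**Figure D4:**
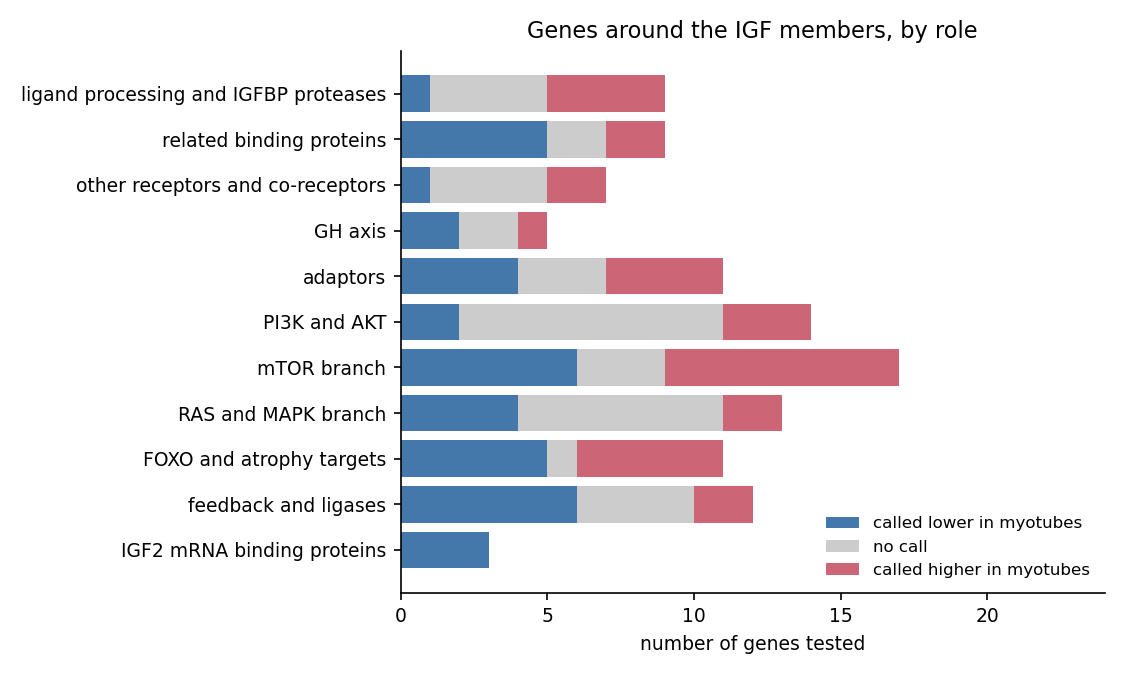
Number of tested genes (horizontal axis) in each of the 11 role groups around the IGF members, split into those called lower, not called and called higher in myotubes (edgeR). All 3 IGF2 mRNA binding protein genes are lower, 9 of 14 PI3K and AKT genes have no call, and the other groups hold calls in both directions. Of all tested genes, 30.0% were called higher and 29.1% lower.

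Of 14 PI3K and AKT genes, 9 had no call, 3 rose and 2 fell. AKT1 was at 53.9 ± 4.58 and 46.8 ± 2.27 FPKM and was not called, though limma on TPM called it lower (log2 change -0.30, adjusted p = 0.0193). AKT2 was matched to no entry. Of the catalytic subunits of PI3K, PIK3CB fell (log2 change -0.83 ± 0.08), as did PIK3CA (-0.41 ± 0.11), whose adjusted p was 0.0600 without myotube replicate 2 (edgeR quasi-likelihood), and PIK3CD rose (0.90 ± 0.11). TBC1D4, an AKT substrate in glucose transport, rose by 0.73 ± 0.12.

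In the mTOR branch 8 of 17 genes rose and 6 fell. MTOR fell from 24.2 ± 3.32 to 11.4 ± 1.41 FPKM (log2 change -1.04 ± 0.13), and RPTOR, its partner in the first complex, by 0.73 on the log2 scale. The S6 kinase genes RPS6KB1 and RPS6KB2 moved apart. RPS6KB1 fell from 39.7 ± 1.44 to 20.2 ± 1.02 FPKM (-0.92 ± 0.08), and RPS6KB2 rose from 10.9 ± 0.767 to 17.1 ± 1.59 FPKM (0.70 ± 0.11). DDIT4, a stress-induced inhibitor of mTOR, rose from 174 ± 39.6 to 995 ± 187 FPKM (2.58 ± 0.19), and ULK1, a kinase that starts autophagy, rose by 0.89 ± 0.16. Of 13 genes of the RAS and MAPK branch 7 had no call, 2 rose and 4 fell. SOS1 (-0.57 ± 0.10) and RRAS2 (-0.64 ± 0.08) fell. RRAS2 was reached from the listed symbol RRAS through a RefSeq synonym, and need not be RRAS itself. Of 2 entries named H-RAS, 1 was called higher (0.42 ± 0.12), but not without myotube replicate 1 or 2 (edgeR adjusted p of 0.0601 and 0.0521) or with limma on TPM (0.0504), and the other was not called (0.33 ± 0.21; edgeR adjusted p = 0.211). How reads were divided between these entries is unstated.

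FOXO factors are held inactive by AKT and drive genes of muscle protein breakdown. Of 11 genes of this group 5 rose and 5 fell. FOXO1 fell from 23.4 ± 4.39 to 14.4 ± 0.848 FPKM (log2 change -0.65 ± 0.15), and BCL6 (-1.24 ± 0.13), KLF15 (-0.91 ± 0.21) and TRIB1 (-0.72 ± 0.13) also fell. Against FOXO1, FOXO4 rose from 17.4 ± 0.461 to 22.3 ± 1.91 FPKM (0.42 ± 0.09), and TRIB2 rose by 0.54 ± 0.07. The muscle ubiquitin ligase genes went opposite ways. TRIM63 was lower (-0.79 ± 0.24, or -0.47 without myoblast replicate 3), with an adjusted p of 0.0186, and 0.0744 without myotube replicate 3 (edgeR). FBXO32 was higher at 9.50 ± 1.58 and 12.0 ± 0.893 FPKM (0.39 ± 0.14) with an adjusted p of 0.0347, which rose to 0.111, 0.0898, 0.136 and 0.0723 without myoblast replicate 1 or 2 or myotube replicate 1 or 2 (edgeR). Adjusted p for FBXO32 was also 0.0603 with the replicate block and 0.0623 to 0.157 in the limma fits on FPKM or TPM, so that its call held in 5 of 16 alternatives. FOXO3, called higher at 0.26 ± 0.10 with an adjusted p of 0.0411, was not called without myoblast replicate 1 or 2 or any 1 myotube library, where adjusted p was 0.0784 to 0.135 (edgeR). It was not called either with DESeq2 (adjusted p = 0.0636), with no filter on low counts (0.0511 by edgeR) or in the limma fits (0.0972 to 0.375), and held in 3 of 16 alternatives.

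Of 12 feedback genes and ligases 2 rose and 6 fell. GRB10, an adaptor that binds and dampens IGF1R and INSR, fell from 58.9 ± 12.3 to 32.1 ± 1.35 FPKM (log2 change -0.83 ± 0.15). SOCS3 fell by 0.99 and the phosphatase gene PTPN1, which acts on the insulin receptor, by 0.86 on the log2 scale. FBXW8, part of a ubiquitin ligase known in mouse to degrade IRS1, rose from 7.47 ± 0.358 to 15.1 ± 0.337 FPKM (1.07 ± 0.09).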

How the data were processed

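Reads were handled with HISAT and HTSeq, per the submitters' processing notes whose versions, genome build, annotation, strand setting and filters no source used here gives. Each deposited table held whole-number read counts per gene and the FPKM that the authors computed from them, per the file headers; 2 stray text lines at the end of each table were dropped. Groups came from the developmental stage labels and replicate numbers from the titles.

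The test was edgeR's quasi-likelihood test (edgeR 4.0.16, R 4.3.3) on the counts as deposited, with filterByExpr (minimum count 10, total 15), TMM scaling, 2 groups and no block, two-sided, Benjamini-Hochberg adjusted over 15959 genes and called under 0.05. SE, an approximation, is the size of a log2 change over the root of its F statistic; 95% intervals use it with the fit's degrees of freedom. The fits were also run on simulated counts with known changes in far fewer genes than were called here, which lends the calls no support. Alternatives used DESeq2 1.42.0 and limma 3.58.1. Over all genes, deviations of same-numbered libraries showed almost no correlation. No deposited entry overlapped a member.

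Named were all members, and in each role group up to 4 called genes with the largest change and a mean of at least 1 FPKM, a fixed set whatever its result (IRS1, IRS2, AKT1, AKT2, FOXO1, FOXO3, FBXO32, PAPPA, PAPPA2, STC1, STC2, IGF2BP1, IGF2BP3), and 2 pattern partners per member. CYR61, IGFALS, IDE, HTRA1, INSRR, M6PR, RPTOR, RPS6KB2, FOXO4 and TRIB2 were added after their values were seen. Symbols were matched by name or RefSeq synonym (GRCg7b table, names only). Members and lists were chosen with earlier results of these data known. Some genes that met these rules are not reported here.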

Additional observations from a re-analysis of the deposited data

How the results depend on the processing

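The calls of IGF2, IGF1R, IGFBP2 and IGFBP4, and the absence of a call for INSR and IGF2R, held with their direction in all 16 alternatives (DESeq2, its size factors, no filter, limma on FPKM or TPM with other pseudocounts, a stricter threshold, a replicate block, and each library left out). Log2 changes ran from 0.98 to 1.45 for IGF2, -0.80 to -0.56 for IGF1R, -1.94 to -1.61 for IGFBP2 and -0.82 to -0.52 for IGFBP4. Leaving out 1 library gave 0.23 to 0.41 for IGFBP3, -0.27 to 0.19 for IGFBP5, and 1 to 2 members called higher, the 2 without myoblast replicate 3. IGFBP5 turned negative with limma on FPKM (-0.08, -0.09 and -0.07 with pseudocounts of 1, 0.1 and 5, and -0.08 with no filter), on TPM (-0.18) and with the replicate block (-0.03); the cause was not tested. STC2 turned to -0.01 with limma on FPKM and -0.11 on TPM. With 1 library left out STC2 ran from -0.07 to 0.15 and STC1 from -0.25 to 0.04. Of 48 genes of the pathway lists named by the rules above, 36 kept direction and call throughout. The genes added after their values were seen were not part of this count. Among 13642 genes present in every fit, edgeR gave a median log2 change of 0.01, limma on FPKM (pseudocount 1) -0.03 and limma on TPM -0.13. Of each fit's own calls 50.7%, 47.2% and 39.2% were higher. A pseudocount of 5 gave smaller values for genes of low level, such as 1.13 for DOK5, 0.84 for PLAU and 2.08 for PCSK6. The replicate block gave 4579 genes higher and 4381 lower against 4785 and 4651; deviations of same-numbered libraries correlated at 0.037, 0.0296 and -0.0496, so the numbers do not show a pairing. Depth limits IGF1, which had 14 reads in all.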
